A study of Mus musculus with 4 samples.

Results

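Tcf7, Lef1, Satb1, Klf2, Klf3, Foxo1, Bach2, Id2 and Id3 are 9 genes for transcriptional regulators that are studied in naive and resting T cells, and they are described here in CD4 T cells of the mouse colon. They were chosen by name, as 9 of the 25724 gene columns of a single-cell count table, and were read in the 1050 of 1985 droplet barcodes with at least 500 counts, at least 200 detected genes and under 20% mitochondrial counts. The cells came from male B6 mice aged 6 weeks and were sorted as CD45+ TCRb+ CD4+ after collagenase and dispase digestion of the colon. They were profiled by inDrops, which tags the RNA of each cell in a droplet with a barcode. The labels give 4 samples, named Btheta_colon 1 to 4, and no control group. They do not say what Btheta stands for, so whether the mice were treated, colonised or otherwise altered is not known here, nor how many animals were pooled. The barcodes carry no sample, so the 4 samples were 1 table and counted as 1 sample. No comparison between samples and no test was possible, and no p-value is given. All intervals are exact 95% intervals that cover counting error only.

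TCF-1 (encoded by Tcf7) and LEF-1 are related DNA-binding proteins that establish and maintain T cell identity, and both are high in naive and memory-like T cells. KLF2 keeps T cells quiescent and drives the gene for the lymph node exit receptor S1PR1. FOXO1 acts upstream of Klf2, Ccr7 and Il7r, and is held out of the nucleus by antigen receptor signalling. BACH2 restrains effector genes, SATB1 organises chromatin in thymocytes and naive T cells, and KLF3 is a repressor of the same family as KLF2. ID2 and ID3 lack a DNA-binding domain and block E proteins, with ID3 typical of naive and memory-like cells and ID2 of effector and tissue-resident cells.

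The genes lie at separate loci of the mm10 build. In the GENCODE vM21 annotation of that build, Tcf7 is at chr11:52252371-52283014 on the minus strand, Lef1 at chr3:131110471-131224356 on the plus strand, Satb1 at chr17:51736187-51833290 on the minus strand and Klf2 at chr8:72319033-72321656 on the plus strand. Klf3 is at chr5:64803388-64832901, Foxo1 at chr3:52268336-52353221, Bach2 at chr4:32238804-32586108 and Id3 at chr4:136143497-136145755, all on the plus strand, and Id2 is at chr12:25093799-25097140 on the minus strand. All 9 are protein-coding. Klf2, Id2 and Id3 overlap no other annotated gene, whereas the other 6 overlap between 2 and 6 annotated genes each, some of them antisense. Whether the counting used strand is not given in the sources used here, so reads of these neighbours could not be told apart from those of the genes.

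Promoter sequences are shown for Klf2 and Id2, which lay on opposite sides of the Ccr7 gate described below, and for Klf3, which held the most copies of the KLF motif. They are RefSeq sequences of build GRCm38.p6 from 250 bases before to 50 bases after the transcription start, written in the direction of transcription. They lie at chr8:72318812-72319111 (plus strand), chr12:25096043-25096342 (minus strand) and chr5:64803271-64803570 (plus strand). Capitals mark the KLF box CCACCC and the E box CAGNTG, each on either strand.
Klf2: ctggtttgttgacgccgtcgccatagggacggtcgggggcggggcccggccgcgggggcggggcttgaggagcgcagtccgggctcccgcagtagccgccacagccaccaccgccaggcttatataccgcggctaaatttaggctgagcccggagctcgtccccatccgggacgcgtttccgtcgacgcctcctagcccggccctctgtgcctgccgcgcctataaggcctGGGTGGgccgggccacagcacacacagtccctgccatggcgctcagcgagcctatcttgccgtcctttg
Id2: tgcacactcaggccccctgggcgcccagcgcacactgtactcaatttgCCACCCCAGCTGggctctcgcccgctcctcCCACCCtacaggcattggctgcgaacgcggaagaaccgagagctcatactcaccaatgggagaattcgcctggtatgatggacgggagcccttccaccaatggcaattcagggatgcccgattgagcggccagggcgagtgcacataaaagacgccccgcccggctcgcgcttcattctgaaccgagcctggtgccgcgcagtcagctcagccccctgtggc
Klf3: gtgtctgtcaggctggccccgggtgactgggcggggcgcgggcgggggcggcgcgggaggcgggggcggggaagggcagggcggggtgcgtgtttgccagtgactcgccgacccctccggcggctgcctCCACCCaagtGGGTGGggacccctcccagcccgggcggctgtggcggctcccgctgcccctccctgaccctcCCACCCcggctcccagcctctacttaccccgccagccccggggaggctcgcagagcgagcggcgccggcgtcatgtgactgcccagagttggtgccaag
The KLF box was present once in the Klf2 window, 2 times in the Id2 window and 3 times in the Klf3 window. In the Id2 window 1 KLF box is directly followed by an E box, the element bound by the E proteins that ID2 blocks, so that both form a single run of capitals. Among the 9 genes, 5 had a KLF box, against 31.5% of 32851 RefSeq promoter windows of the same length, and 4 had an E box, against 51.4%. The FOXO box TGTTTAC was in none of the 9 windows and in 3.65% of all windows, and the TCF/LEF box CTTTGA was in the Bach2 window and in 16% of all windows. The Id2, Id3 and Bach2 windows lie inside their genes and not at the GENCODE starts given above. Those of Id3 and Bach2 are at chr4:136143572-136143871 and chr4:32417185-32417484. The Id2 sequence shown, with its run of a KLF box and an E box, therefore lies past the GENCODE start. The Lef1 window, at chr3:131110073-131110372, ends before its gene. The GC content of the 3 windows shown was 69.3% for Klf2, 63.3% for Id2 and 76.7% for Klf3, against a median of 52.7%. A match is a description of the letters in the window and no measurement of binding was made.

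The 1050 cells held 1549040 counts, with a median of 1235.5 per cell (range 501 to 13023), so a single cell showed only part of its transcripts. At least 1 of 9 T cell markers was detected in 97.7% of cells, Trbc2 in 69.9% and Cd4 in 39.0%. Markers of other cell types were rarer: 22 cells had a CD8 marker, 39 an ILC or NK marker, 8 a B or plasma cell marker, 19 a myeloid marker and 45 an epithelial marker, while Ncr1 and Cd68 were at 0. At least 1 stromal or endothelial marker was found in 123 cells, 96 of which had Pecam1. A set of 20 cells carried at least 3 non-T markers. Their median depth was 2569 counts, 10 had an epithelial marker, 8 had any T cell marker and 1 had Cd4. They are used below for comparison, and whether they lack the members was not known beforehand.

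Id2 was the member found in the most cells, with counts in 527 of 1050 cells (50.2%, interval 47.1 to 53.3%) and a level of 912 CPM, the counts of the gene per 1000000 counts of these cells. Foxo1 followed in 296 cells (28.2%) and Klf2 in 215 cells (20.5%). Tcf7 was detected in 119 cells (11.3%), Lef1 in 87 (8.29%), Klf3 in 82 (7.81%) and Satb1 in 77 (7.33%). Id3 and Bach2 were the sparsest, with 51 counts in 25 cells (2.38%) and 30 counts in 22 cells (2.10%). These shares order the genes by detection only, since the primed 3′ ends give no scale per length on which levels of different genes could be compared. When each cell was thinned to 500 counts, detection was 29.9% for Id2, 13.9% for Foxo1, 13.0% for Klf2 and 5.52% for Tcf7.

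These shares were compared with those in the non-T cells. Lef1 was at 0 in all 20 of them, which allows a share of cells with a count of up to 15% (3 of 20; exact upper limit 16.8%), and at 97.9 CPM in the other 1030 cells. Tcf7, Satb1 and Foxo1 were each detected in 2 of the 20 (10%), at 25.8, 25.8 and 38.7 CPM, against 121, 98.5 and 347 CPM in the other cells. Id2 was at 129 CPM in them against 953 CPM in the rest. At their greater depth, 10% is close to the 11.4% and 7.28% of other cells with Tcf7 or Satb1, so detection alone is not read as expression for these genes, and the CPM are used. Klf2 was in 6 of the 20 (30%) against 20.3% of the other cells, and in 15% against 12.9% after thinning. Its level was 258 CPM (158 to 399) against 383 CPM (352 to 416). Neither its share nor its level in the other cells was above that of the non-T cells beyond the intervals. After thinning to 500 counts none of the 20 cells kept a count of Tcf7, Lef1, Satb1 or Foxo1, against 5.63%, 3.4%, 3.59% and 14.2% of the other cells. Id3 and Klf3 went the other way. The 20 cells held 25 of the 51 Id3 counts (49.0%), in 7 cells, and 25 of the 145 Klf3 counts (17.2%), in 10 cells, with both genes at 323 CPM there against 17.7 and 81.5 CPM in the other cells. The ratios of Id3 and Klf3 by the gates are therefore given with and without these cells.

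The number of members seen per cell was small. No member was detected in 217 cells (20.7%), 1 in 435, 2 in 244, 3 in 107, 4 in 30, 5 in 16 and 6 in 1. The median depth was 1045 counts in cells with none and 1661.5 counts in cells with 5, so depth moved with this number. Cells with more members were also more often Ccr7-positive. Ccr7, the receptor that leads T cells into lymph nodes, was detected in 0.461% of cells with no member, 9.35% of cells with 3 and 37.5% of cells with 5.

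**Figure D1:**
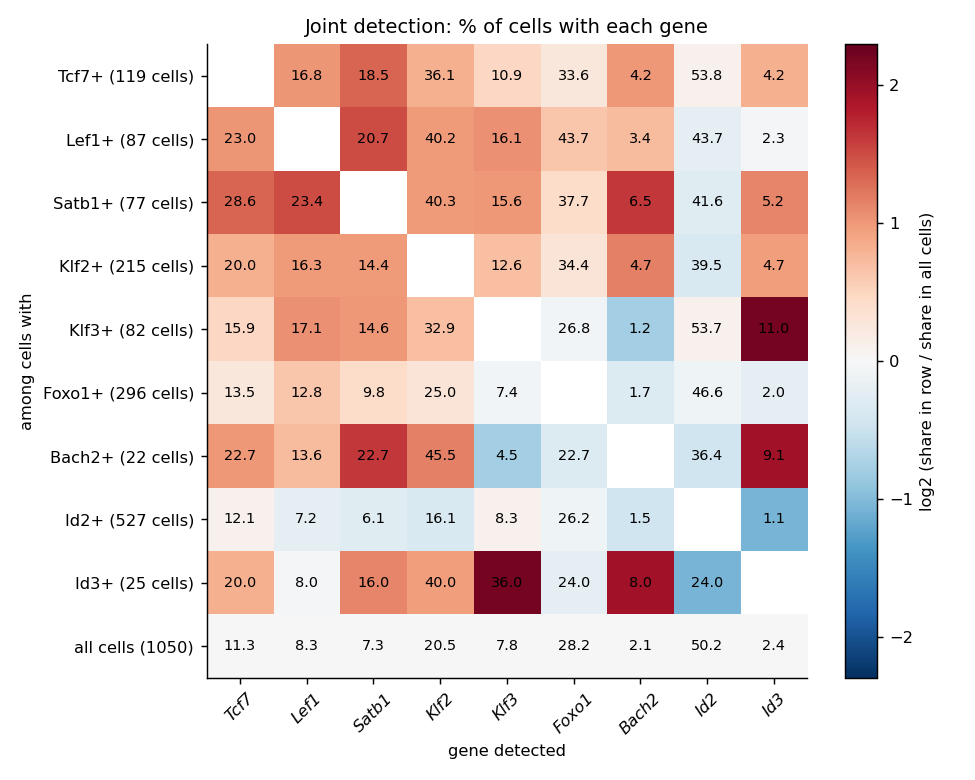
Joint detection of the 9 genes. Each row takes the cells with counts of 1 gene (bottom row, all 1050 cells), each column gives the percent of them with counts of another gene, and colour is the log2 of that share over the share in all cells; Tcf7, Lef1, Satb1 and Klf2 are enriched in one another's rows, and Id2 is below its overall 50.2% in the Klf2 row.

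Each pair can be read both ways, as the share of the second gene in cells with and without the first or the reverse, which gives 72 directions for 36 pairs. The share was higher with the partner for 25 of the 36 pairs. The exact intervals of the shares with and without the partner were apart upwards for 20 of the 72 directions and downwards for 3, which were both directions of Klf2 and Id2, and Id2 by Id3. Klf2 was detected in 36.1% (27.5 to 45.4%) of Tcf7-positive cells and in 18.5% of Tcf7-negative cells. The corresponding shares were 40.2% and 18.7% by Lef1 and 40.3% and 18.9% by Satb1. The shares of Klf2 beside the 3 factors had overlapping intervals. Without the 20 non-T cells the shares by Tcf7 were 35.9% and 18.3%. Satb1 was detected in 18.5% of Tcf7-positive and 5.91% of Tcf7-negative cells, and in 20.7% of Lef1-positive and 6.13% of Lef1-negative cells. Lef1 was detected in 16.8% of Tcf7-positive and 7.2% of Tcf7-negative cells. Foxo1 had intervals that were apart for the partner Lef1, being detected in 43.7% (33.1 to 54.7%) of Lef1-positive and 26.8% (24.0 to 29.7%) of Lef1-negative cells.

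Id2 was the exception among the partners of Klf2. It was detected in 39.5% (33.0 to 46.4%) of the 215 Klf2-positive cells and in 52.9% (49.5 to 56.4%) of Klf2-negative cells, although the Klf2-positive cells were deeper (medians of 1391 and 1213 counts). Without the Ccr7-positive cells the shares were 42.7% and 53.0%, and their intervals then overlapped (35.6 to 50% and 49.6 to 56.5%). The intervals also overlapped when all cells were thinned to equal depth. Id2 was then in 22.1% (15.4 to 30.0%) of cells with Klf2 and 31.1% (28.1 to 34.2%) of cells without. In the reverse direction, Klf2 was in 9.55% (6.54 to 13.4%) of thinned cells with Id2 and 14.4% (11.9 to 17.1%) of those without. The pair of Id3 and Klf3 also stood out, with Klf3 in 9 of 25 Id3-positive cells (36%) and in 7.12% of the other cells. Without the 20 non-T cells 3 of 18 Id3-positive cells had Klf3 (16.7%, 3.58 to 41.4%), against 6.82% of the rest.

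Cells are deeper where more genes are seen, and the thinned data show what is left at equal depth. There 21 of 36 pairs were higher with the partner, and 8 of 72 directions were apart upwards and 1 downwards, which was Id2 by Id3. Klf2 by Tcf7, Lef1 and Satb1, Satb1 by Tcf7, and Foxo1 by Lef1 stayed apart. Satb1 by Lef1 (5.71% against 3.45%) and Lef1 by Tcf7 (5.17% against 3.23%) had intervals that overlapped. Among Ccr7-negative cells at full depth, where Tcf7-positive cells had a median of 1439.5 and the others of 1218 counts, Satb1 was detected beside Tcf7 at 13.5% (7.56 to 21.6%) against 5.03% (3.71 to 6.66%), and Klf2 at 29.8% (21.2 to 39.6%) against 17.6% (15.2 to 20.2%). Lef1 beside Tcf7 was 11.5% (6.11 to 19.3%) against 6.78% (5.24 to 8.61%) in those cells, with intervals that overlapped. After thinning all 3 overlapped: Satb1 was at 5.77% (2.15 to 12.1%) against 2.41% (1.51 to 3.62%), Klf2 at 20.2% (13.0 to 29.2%) against 10.8% (8.89 to 13.0%), and Lef1 was lower beside Tcf7, at 1.92% against 3.06%.

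Cells were next sorted by how many of Tcf7, Lef1, Satb1 and Klf2 they showed. None was detected in 680 cells, 1 in 277, 2 in 64, 3 in 23 and all 4 in 6. Ccr7 was detected in 0.441%, 2.17%, 17.2%, 34.8% and 66.7% of these cells in that order. Foxp3 went the other way, at 33.7%, 32.5%, 18.8%, 4.35% and 0%, as did Ikzf2 at 35.6%, 36.1%, 23.4%, 4.35% and 0%. Gata3 was in 52.9%, 63.2%, 48.4%, 21.7% and 16.7% of the cells, highest with 1 of the 4 factors and not at 0 with all 4. Id2 was in 51.2%, 52.0%, 46.9%, 21.7% and 0% of the cells. The median depth was 1194, 1317, 1498, 1486 and 1234 counts, so the 6 cells with all 4 factors were no deeper than the average cell. A count of 0 in 6 cells limits little, since its interval reaches 45.9%.

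**Figure D2:**
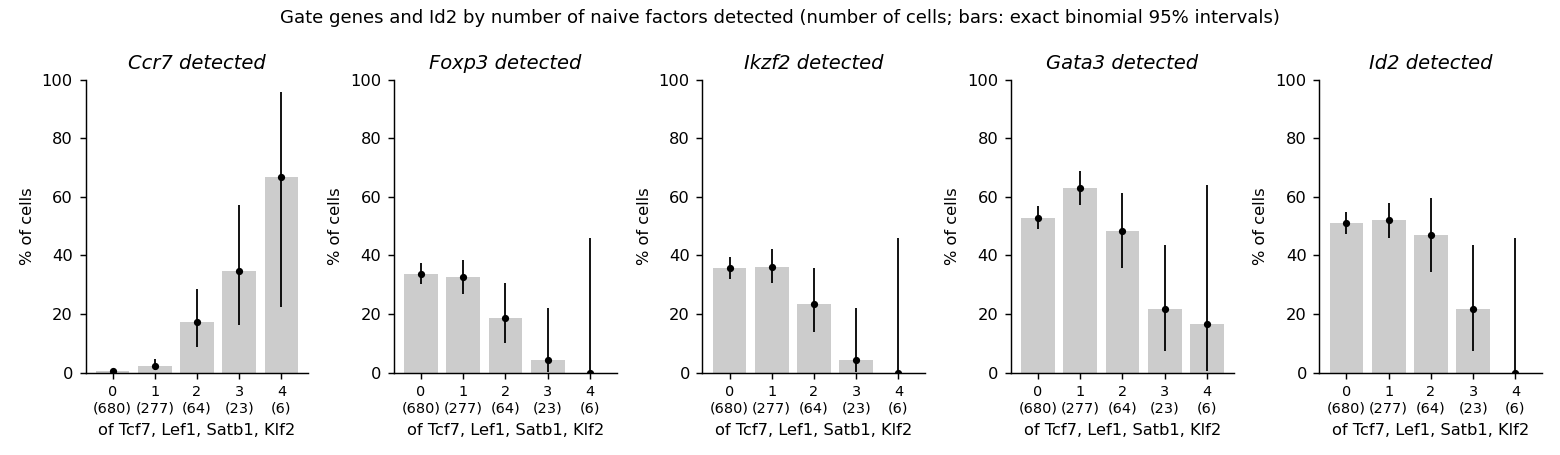
Percent of cells with counts of Ccr7, Foxp3, Ikzf2, Gata3 and Id2 (y axis) by the number of the genes Tcf7, Lef1, Satb1 and Klf2 detected in the cell (x axis, number of cells in brackets), with exact binomial 95% intervals. Ccr7 climbs from 0.441% to 66.7%, while Foxp3, Ikzf2 and Id2 reach 0 and Gata3 16.7% in the 6 cells with all 4 genes.

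Levels were then compared on both sides of 4 gates, each of which took cells with at least 1 count of the gate gene as positive. Ccr7 gave 32 positive cells, Foxp3 (which defines regulatory T cells) 332, Ikzf2 (Helios, found in many regulatory T cells) 358 and Gata3 (a factor of type 2 and of tissue regulatory T cells) 572. The positive sets overlapped: 201 Foxp3-positive cells were also Gata3-positive and 166 also Ikzf2-positive, and the 32 Ccr7-positive cells included 3 with Foxp3, 6 with Gata3 and 2 with Ikzf2. The 4 comparisons are therefore not independent. Median depths were close on both sides for Ccr7 (1259 and 1233.5 counts), and were 1304.5 and 1215 for Foxp3, 1339 and 1206 for Ikzf2, and 1336 and 1161 for Gata3. A cell with 0 counts of a gate gene can still express it. Ratios are given as log2 of the CPM in positive over negative cells, and 2-fold was the size at which a member is counted as different.

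**Figure D3:**
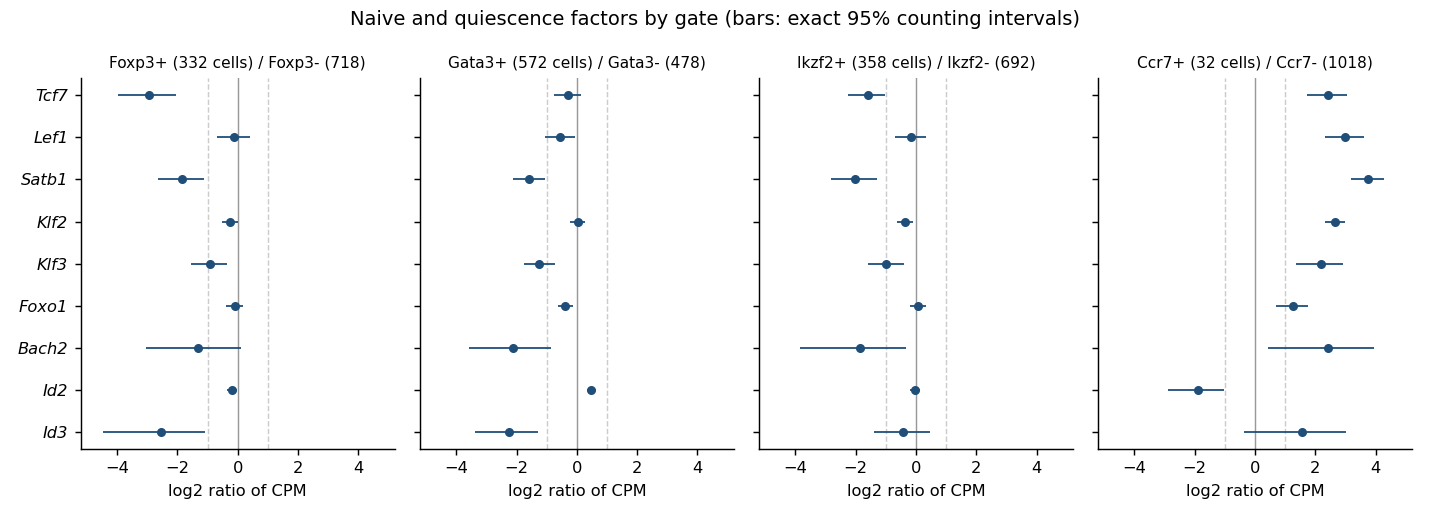
Log2 ratio of CPM in gate-positive over gate-negative cells (x axis) for each of the 9 genes (y axis) and 4 gates, with exact 95% counting intervals; solid line, no difference, and dashed lines, 2-fold. Every gene but Id2 lies to the right for Ccr7, and Tcf7, Satb1, Bach2 and Id3 lie past 2-fold to the left for Foxp3.

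In Ccr7-positive cells 8 of the 9 members were at least 2-fold higher and Id2 was at least 2-fold lower. Of the 5312 genes with a ratio by Ccr7, 15.2% were at least 2-fold higher and 17% at least 2-fold lower. Genes with counts on a single side and too few for a ratio are left out. By Foxp3, Ikzf2 and Gata3 7564 genes had a ratio. Shares of all genes by a gate, here and below, are shares of the genes with a ratio. Satb1 had the largest ratio, with 939 CPM (674 to 1274) in Ccr7-positive and 70.4 CPM (57.6 to 85.2) in Ccr7-negative cells, a log2 ratio of 3.74 (3.18 to 4.27). Lef1 was at 619 against 77.7 CPM (2.99, 2.33 to 3.61), Klf2 at 2062 against 328 CPM (2.65, 2.31 to 2.98) and Tcf7 at 549.9 against 104 CPM (2.41, 1.72 to 3.03). For these 4 genes the intervals of both sides were apart. With each cell thinned to 500 counts before gating, the Lef1 ratio was 1.29 (1.10 to 2.94 over 11 random draws). Klf2 was detected in 23 of the 32 cells (71.9%, 53.3 to 86.3%) and in 18.9% of the rest, Satb1 in 17 (53.1%) and 5.89%, Tcf7 in 15 (46.9%) and 10.2%, and Lef1 in 13 (40.6%) and 7.27%. With cells of at least 1000 counts the Satb1 ratio was 3.12.

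Klf3 was at 389 against 85.0 CPM (2.20, 1.37 to 2.93) and Foxo1 at 756 against 319 CPM (1.25, 0.69 to 1.76). Foxo1 thus differed least among the well-counted members that were higher, and after thinning its ratio was 0.24 (-0.59 to 1.34 over the draws), short of 2-fold. Bach2 (2.41, 0.43 to 3.93) and Id3 (1.55, -0.38 to 3.0) each rested on 4 counts in Ccr7-positive cells, and the Id3 interval includes no difference. Id2 was at 252 CPM (126 to 451) in Ccr7-positive and 931 CPM (883 to 981) in Ccr7-negative cells, a log2 ratio of -1.88 (-2.89 to -1.04). It was detected in 7 of the 32 cells (21.9%, 9.28 to 40.0%) and in 51.1% of the others. With each count capped at 1 per cell the Id2 ratio was -0.97, just short of 2-fold. None of the 20 non-T cells was Ccr7-positive, and without them the ratios of Id3 and Klf3 were 2.57 and 2.43.

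Mitochondrial, ribosomal and T cell receptor genes made up 35.6% of the counts of Ccr7-positive cells and 22.4% of the others. Totals without them shifted the median of all genes by 0.27 on the log2 scale for this gate, and by -0.06, -0.05 and -0.04 for Foxp3, Ikzf2 and Gata3. These genes were counted beside the result, and their part in it was not tested.

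In Foxp3-positive cells 4 members, Tcf7, Id3, Satb1 and Bach2, were at least 2-fold lower and none was at least 2-fold higher. The background was 8.13% of 7564 genes lower and 4.51% higher. Tcf7 was at 21.4 CPM (10.7 to 38.2) in 332 Foxp3-positive and 163 CPM (140 to 190) in 718 Foxp3-negative cells, a log2 ratio of -2.93 (-3.96 to -2.06). The non-T cells had 25.8 CPM of Tcf7 on 2 counts (3.13 to 93.2), too few to say whether the Foxp3-positive level matches theirs. Satb1 was at 35.0 against 125 CPM (-1.83, -2.63 to -1.12). Lef1, by contrast, was at 87.4 against 95.7 CPM (-0.13, -0.67 to 0.39), so the paralogs Tcf7 and Lef1 parted at this gate, with intervals of their ratios that did not overlap. The difference between the 2 ratios was not tested. Klf2 (-0.25), Foxo1 (-0.10) and Id2 (-0.20) were within 2-fold, and Klf3 was at 58.3 against 111 CPM (-0.93, -1.56 to -0.34). Bach2 had 5 counts on the Foxp3-positive side and an interval that includes no difference (-1.31, -3.06 to 0.10).

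Id3 was at 7.77 against 45.4 CPM by Foxp3 (-2.55, -4.48 to -1.10), but 18 of the 20 non-T cells were Foxp3-negative. Without them its ratio was -1.52, with an interval from -3.52 to 0.04, and that of Klf3 was -0.84. Leaving out the Ccr7-positive cells kept Tcf7 and Satb1 at least 2-fold lower, moved Klf2 to 0.02 and turned Lef1 to 0.13.

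In Ikzf2-positive cells Satb1 (32.3 against 130 CPM, -2.01, -2.81 to -1.29), Bach2 (7.19 against 26.2 CPM, -1.87, -3.85 to -0.34) and Tcf7 (50.3 against 153 CPM, -1.61, -2.24 to -1.02) were at least 2-fold lower, so 3 of 9 members passed that size and none was higher. Among 7564 genes 6.72% were at least 2-fold lower and 4.3% higher. Klf3 was just inside, at 57.5 against 114 CPM (-0.99), and was at -1.02 without the non-T cells. Klf2 was at 320 against 409 CPM (-0.35, -0.62 to -0.10). Lef1 (-0.17), Id3 (-0.43, and -0.97 without the non-T cells), Id2 (-0.04) and Foxo1 (0.08) had intervals that include no difference, and the sign of Foxo1 changed with thinning and with equal weight for each cell.

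In Gata3-positive cells Id3, Bach2, Satb1 and Klf3 were at least 2-fold lower, 4 of 9, and none was higher, against 5.65% and 4.81% of 7564 genes. Satb1 was at 51.0 against 153 CPM (-1.58, -2.12 to -1.06), Klf3 at 59.0 against 139 CPM (-1.24, -1.76 to -0.74) and Bach2 at 7.94 against 34.5 CPM (-2.12, -3.58 to -0.85). Id3 was at 12.5 against 59.9 CPM (-2.26), and at -1.22 (-2.53 to 0.01) without the non-T cells, 16 of which were Gata3-negative, where Klf3 was at -1.18. Unlike by Foxp3 and Ikzf2, Tcf7 was within 2-fold here, at 105 against 130 CPM (-0.31, -0.74 to 0.13). Id2 was higher in Gata3-positive cells, at 1039 CPM (973 to 1108) against 743 CPM (679 to 812), a log2 ratio of 0.48 (0.32 to 0.64). It was detected in 56.3% of Gata3-positive and 42.9% of Gata3-negative cells, and in 34.4% and 24.5% after thinning. Without the non-T cells the Id2 ratio was 0.34. Klf2 was at 380 against 373 CPM (0.03, -0.21 to 0.27), a difference whose sign depended on the scaling: it turned negative with capped counts, with a gate of at least 2 counts, without the non-T cells, with equal weight for each cell and with totals without mitochondrial, ribosomal and T cell receptor genes. Without the Ccr7-positive cells it was 0.49.

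To separate the overlapping gates, cells were divided into 9 classes that share no cell: the Ccr7-positive cells, and the Ccr7-negative cells by Foxp3, Ikzf2 and Gata3. Ccr7-positive cells had the highest level of Tcf7, Lef1, Satb1, Klf2, Klf3, Foxo1 and Bach2 and the lowest of Id2. For Tcf7, Lef1, Klf2 and Klf3 the step from Ccr7-positive cells to the next class was the only step between neighbours in the order whose intervals did not overlap. For Foxo1 (756 CPM, 520 to 1062) the next class overlapped, at 619 CPM (434 to 858). The next class also overlapped for Bach2, with 4 counts in Ccr7-positive cells, and for Id2.

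Outside the Ccr7-positive cells, Tcf7 was highest in the 237 Foxp3- Ikzf2- Gata3+ cells at 198 CPM (154 to 252) and in the 262 cells without any gate gene at 159 CPM (121 to 205), which did not differ beyond their intervals. Tcf7 was at 78.7 CPM in Foxp3- Ikzf2+ Gata3+ cells and at 35.9 CPM (7.41 to 105, on 3 counts) in Foxp3- Ikzf2+ Gata3- cells. The 4 Foxp3-positive classes lay between 0 and 34.4 CPM, up to nearly the level of the Foxp3- Ikzf2+ Gata3- cells. None of the 84 Foxp3+ Ikzf2- Gata3- cells had a Tcf7 count, which allows a share of cells with a count of up to 3.57% (3 of 84; exact upper limit 4.30%), at a median depth of 1194 counts. Satb1 had a different order. It was at 157 CPM (119 to 202) in cells without any gate gene, at 79.9 CPM (52.7 to 116) in Foxp3- Ikzf2- Gata3+ cells, with intervals apart, and at 14.7 CPM (3.04 to 43.1) in Foxp3- Ikzf2+ Gata3+ cells. So with Foxp3 and Ikzf2 both undetected, the Gata3-positive and Gata3-negative cells had overlapping intervals for Tcf7 and separate ones for Satb1.

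**Figure D4:**
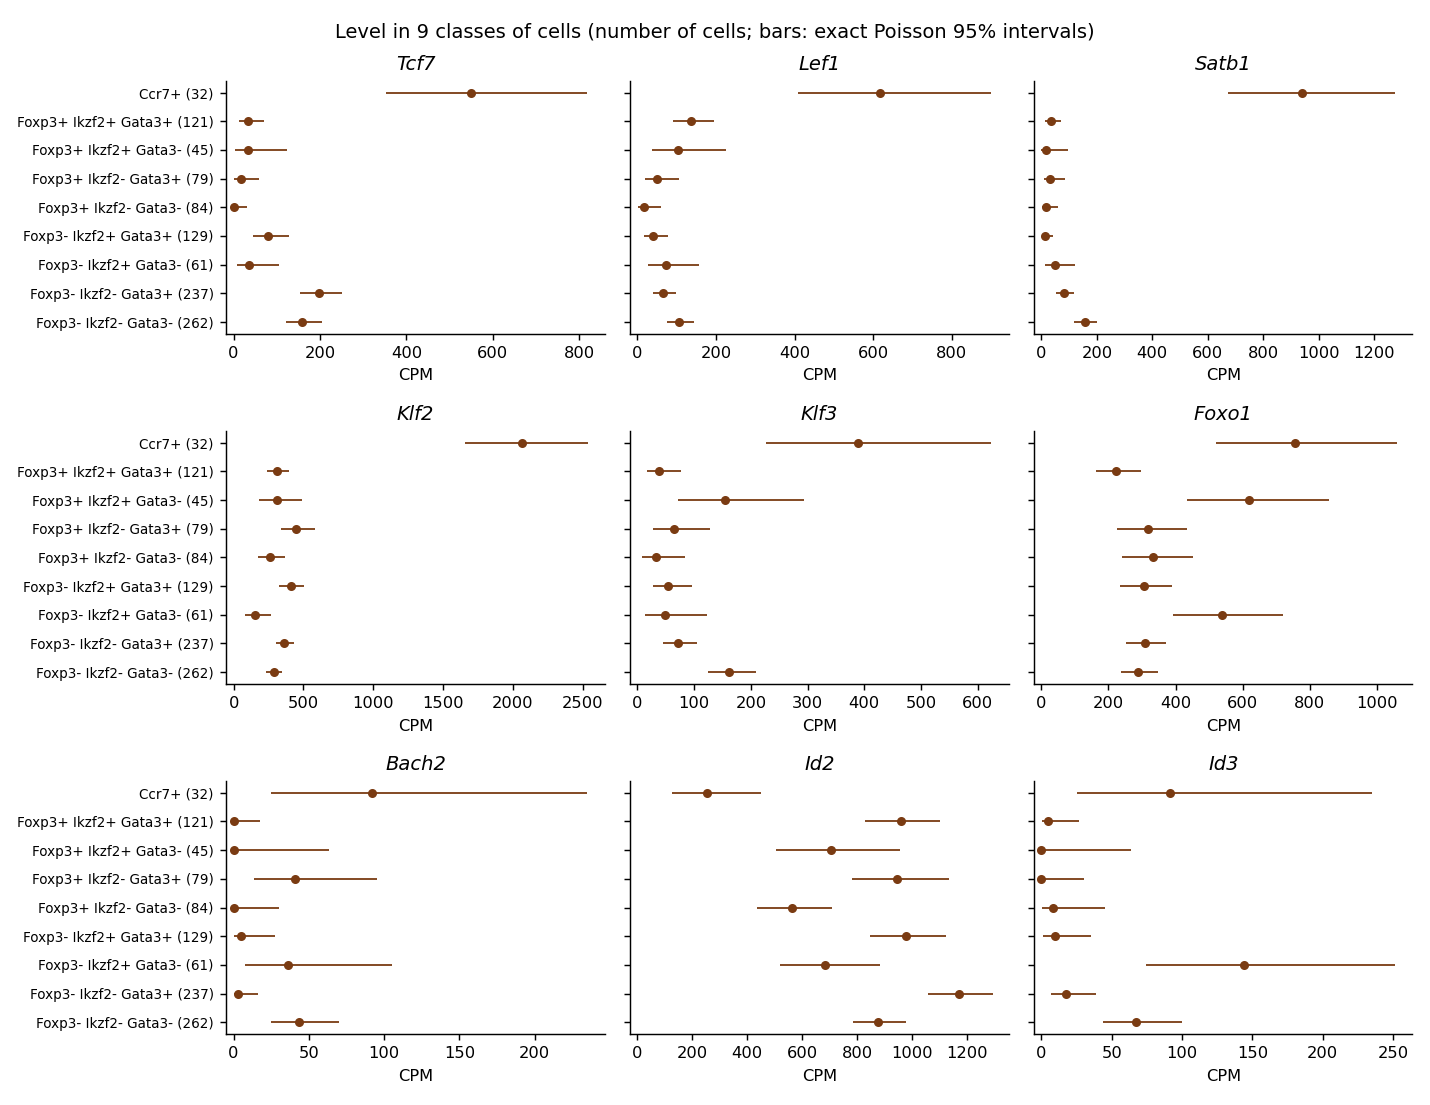
CPM (x axis, a linear scale of its own in each panel) of the 9 genes in 9 classes of cells that do not overlap (y axis, number of cells in brackets), with exact Poisson 95% intervals. Ccr7-positive cells lie far to the right for Satb1 (939 CPM) and Klf2 (2062 CPM) and to the left for Id2 (252 CPM).

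Foxo1 varied with Ikzf2 and Gata3 together. Outside the Ccr7-positive cells it was highest in the 2 Ikzf2+ Gata3- classes, at 619 CPM (434 to 858) in the 45 Foxp3-positive cells and 539 CPM (393 to 722) in the 61 Foxp3-negative cells. The Ikzf2+ Gata3+ cells had 223 CPM (163 to 297) and 305 CPM (234 to 391), below the Ikzf2+ Gata3- cells of the same Foxp3 state in both cases, with intervals apart. Detection went the same way, at 42.2% and 42.6% of Ikzf2+ Gata3- cells against 25.6% and 27.1% of Ikzf2+ Gata3+ cells, while the former were shallower (median depths of 1099 and 1166 against 1487 and 1475 counts). The 4 classes without Ikzf2 lay between 289 and 333 CPM, so Foxo1 differed little with Gata3 where Ikzf2 was not detected. This pattern was noticed in the data and was not tested. Id2 followed Gata3 across the classes: the 4 Gata3-positive classes had the highest levels, at 947 to 1172 CPM, and the 4 Gata3-negative classes were at 561 to 877 CPM. Its neighbours in the order all overlapped. Klf2 was lowest in Foxp3- Ikzf2+ Gata3- cells at 156 CPM (82.9 to 266), and the other 7 Ccr7-negative classes lay between 260 and 449 CPM.

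Lef1 went opposite ways by CPM in the 2 Foxp3 states. Among 332 Foxp3-positive cells it was at 128.5 CPM in the 166 Ikzf2-positive and 44.0 CPM in the 166 Ikzf2-negative cells, a log2 ratio of 1.55 (0.53 to 2.68). It was detected in 12% (7.52 to 18.0%) of the former and 4.22% (1.71 to 8.5%) of the latter. Among 718 Foxp3-negative cells it was at 48.0 CPM in Ikzf2-positive and 114 CPM in Ikzf2-negative cells, a ratio of -1.26 (-2.19 to -0.43). The ratios by Gata3 had the same signs, with 1.36 (0.23 to 2.67) among Foxp3-positive and -1.32 (-1.98 to -0.69) among Foxp3-negative cells. At equal depth the Foxp3-positive cells had Lef1 in 4.82% with and 1.81% without Ikzf2, and in 3.48% with and 3.05% without Gata3, with intervals that overlapped for both. The Foxp3-negative cells had it in 2.08% (0.57 to 5.25%) with and 3.80% (2.34 to 5.81%) without Ikzf2. By Gata3 their shares were 2.43% (1.12 to 4.55%) and 4.32% (2.44 to 7.03%), so these intervals overlapped too. Neither gate moved Lef1 by 2-fold over all cells, where these opposite ratios were pooled. Without Ccr7-positive cells the ratios by Ikzf2 were 1.98 (0.84 to 3.30) and -0.82 (-1.77 to 0.04), and by Gata3 1.23 (0.09 to 2.55) and -0.84 (-1.56 to -0.14). In those Foxp3-negative cells the share with Lef1 was 7.1% with and 6.81% without Gata3, so detection did not follow the level there. The difference between the Foxp3 states was not tested, since all cells belong to 1 sample. The Foxp3-positive ratios rest on 34 against 11 and 37 against 8 counts.

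**Figure D5:**
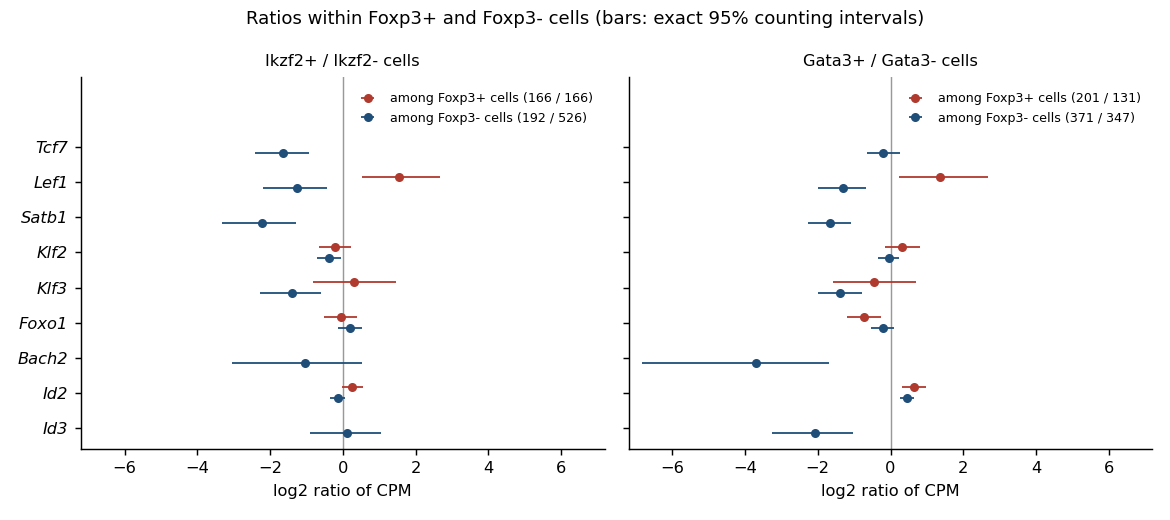
Log2 ratio of CPM by Ikzf2 (left) and by Gata3 (right) among Foxp3-positive (red) and Foxp3-negative (blue) cells, with exact 95% counting intervals and, in brackets, the numbers of positive and negative cells; a gene with under 20 counts in a comparison has no point. Lef1 is right of 0 in Foxp3-positive and left of 0 in Foxp3-negative cells, at 1.55 and -1.26 by Ikzf2.

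Satb1 and Tcf7 showed their Ikzf2 difference in Foxp3-negative cells, at -2.23 (-3.32 to -1.30) and -1.63 (-2.41 to -0.94), and had 18 and 11 counts in all Foxp3-positive cells, too few for a ratio there. Within Foxp3-positive cells Id2 was higher with Gata3 (0.64, 0.32 to 0.96) and Foxo1 lower (-0.73, -1.19 to -0.27). Among Foxp3-negative cells the Id2 ratio by Gata3 was 0.46 (0.27 to 0.65).

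Cells were also divided by Tcf7 itself. Of the other 8 members, Satb1 (230 against 75.4 CPM, 1.61, 1.07 to 2.13), Lef1 (199 against 77.6 CPM, 1.36, 0.79 to 1.90), Klf2 (798 against 316 CPM, 1.33, 1.06 to 1.60) and Bach2 (7 counts, 1.07, -0.39 to 2.34) were at least 2-fold higher in the 119 Tcf7-positive cells. None was at least 2-fold lower. Of the 7532 genes with a ratio by Tcf7, 6.07% were at least 2-fold higher and 16% at least 2-fold lower. Id2 was no lower with Tcf7, at 1104 CPM (962 to 1262) against 884 CPM (834 to 935), a log2 ratio of 0.32 (0.11 to 0.53). Of the Tcf7-positive cells, 15 were Ccr7-positive. Without Ccr7-positive cells the ratios were 1.07 for Satb1, 0.90 for Klf2, 0.81 for Lef1 and 0.45 for Id2, so Klf2 and Lef1 were then within 2-fold. By CPM, Id2 was therefore lower in Ccr7-positive cells and higher in the other Tcf7-positive cells, each against the rest. Among Ccr7-negative cells its detection was 60.6% (50.5 to 70.0%) with and 50% (46.7 to 53.3%) without Tcf7. After thinning these shares were 34.6% (25.6 to 44.6%) and 30.2% (27.2 to 33.3%), so the intervals overlapped both times. Those with Tcf7 were also deeper (medians of 1439.5 and 1218 counts).

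Genes that these factors are known to control, or that share their setting, were read from lists. Among the trafficking genes, S1pr1 (573 against 71.7 CPM, 3.0) and Cxcr4 (275 against 131 CPM, 1.07) were at least 2-fold higher by Ccr7. Il7r (-0.56, -2.19 to 0.68) and Itgb7 (-0.83, -1.96 to 0.11), a gut-homing integrin chain, were within 2-fold. Of 16 naive T cell genes 11 were higher and 1 lower by Ccr7 (15.2% and 17% of all genes), with a median of 1.83 against -0.01 for all genes. Igfbp4 (4.13), Actn1 (3.19), Bcl2 (2.86) and Nsg2 (2.71) were the highest of those with at least 50 counts, while Ms4a4b (0.38) was within 2-fold. The lower gene was Als2cl, with 1 count in Ccr7-positive cells (-1.58, -6.90 to 0.93). By Tcf7, 8 of the 16 were higher and 1 lower (6.07% and 16% of all genes), with Ramp1 (1 count in Tcf7-positive cells, -3.58, -8.91 to -1.07) as the lower gene. By Foxp3, Ikzf2 and Gata3, 7, 6 and 6 of the 16 were lower, against 8.13%, 6.72% and 5.65% of all genes, and none was higher.

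Of genes named for quiescence, 1 of 10 was higher and 1 lower by Ccr7, near the 15.2% and 17% of all genes, with a median of 0.34. Foxp1 was at 504 against 189 CPM (1.42, 0.72 to 2.04) and Ypel3 at 45.8 against 274 CPM (-2.58, -5.63 to -0.72). The antiproliferative genes Btg1 (0.38) and Btg2 (0.06) and the thioredoxin inhibitor Txnip (0.43) were within 2-fold. By Tcf7, Slfn2 was higher (204.5 against 87.2 CPM, 1.23, 0.67 to 1.76) and Ypel3 was at -0.89. The 1 gene of 11 at least 2-fold lower was Tob1, on 2 counts (-1.34, -4.44 to 0.62).

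Of 8 effector factors with a ratio by Ccr7, 5 were at least 2-fold lower, against 17% of all genes, and the other 5 of 13 listed had 0 counts in Ccr7-positive cells and no ratio. The 8 had a median of -1.49 that takes genes at 0 counts at their bound. Maf, a factor of many gut T cell states, was at 160 against 1247 CPM (-2.96, -4.28 to -1.91), Rora at 115 against 384 CPM (-1.74) and Hif1a at 91.6 against 311 CPM (-1.76). Bhlhe40 had 0 counts in Ccr7-positive cells and 168 CPM in the others, a log2 ratio of -1.29 or lower when the empty side was set to 3 counts. Batf, the fifth of them, had 1 count (-1.69, -7.00 to 0.82). Runx3 was at 160 against 122 CPM (0.40). By Tcf7, Prdm1 (Blimp-1, a repressor found in effector cells) was at 15.3 against 90.1 CPM (-2.56, -4.85 to -0.97) and Maf at 491 against 1321 CPM (-1.43), the 2 of 11 that were at least 2-fold lower, near the 16% of all genes.

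Among 7 partners and targets of TCF and LEF with a ratio, 2 were higher by Tcf7 (6.07% of all genes), with a median of 0.17. They were Tle4, on 6 counts (1.13, -0.49 to 2.51), and Axin2, a classical target of the beta-catenin pathway, at 76.7 against 36.2 CPM (1.08, 0.14 to 1.94). Ctnnb1 (-0.14), Aes (-0.02), Ets1 (0.17) and Runx1 (0.26) were within 2-fold. The E protein genes Tcf3 (0.41) and Tcf12 (0.72) were within 2-fold by Tcf7 as well. Of 8 paralogs with a ratio, 2 were lower by Tcf7, against 16% of all genes. One was Klf4 (25.6 against 121 CPM, -2.24, -3.89 to -0.99), opposite to Klf2, and the other was Id1, on 1 count (-1.79, -7.16 to 0.82). No Klf4 ratio is given without the 20 non-T cells, 18 of which were Tcf7-negative, so their part in it is not known. Klf6 (-0.12), Klf7 (0.23) and Klf13 (-0.27) were within 2-fold.

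The genes most like each member over the 1050 cells, by Pearson correlation of log-scaled counts among 4615 genes, are given as a description, since all points share 1 library and the counts are sparse. Satb1 was most like Ccr7 (0.37), followed by Igfbp4 (0.22) and Actn1 (0.21). Lef1 had Igfbp4 (0.23) and Actn1 (0.21) among its 5 most like genes, Klf2 was most like Ccr7 (0.26), and Tcf7 most like Ccr7 (0.22) and Satb1 (0.20). Ccr7 was among the 5 most like genes of each of these 4 members. Foxo1 had Actn1 (0.13) and Klf3 had St8sia4 (0.16) among theirs, and 10 of the 82 cells with Klf3 were non-T cells. Id2 had a separate list of S100a11, Rgs1, Cxcr6, Tmsb4x and Tagln2 (0.15 to 0.18). Id3 was most like Tsc22d1 (0.22) and Cd9 (0.20), with 25 cells behind these values, 7 of them non-T cells.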

How the data were processed

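CD4 T cells sorted from the colon were profiled by inDrops, with oligo dT priming and linear amplification, per the labels' protocols. The authors deposited counts per barcode and gene in 1 table, and the submitters' processing notes name TopHat2, SAMtools and the mm10 build but give no version and no role for them. Neither the counting tool nor the handling of molecular identifiers, strand or annotation is given in the sources used here. Epcam was not analysed here, and Tle5 was read under its older symbol Aes. The values of 1 listed gene are not reported here.

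CPM, the summed counts of a gene per 1000000 counts of a class of cells, were computed here from the deposited counts with numpy 2.4.6 and scipy 1.17.1. Levels have exact Poisson, shares exact binomial (Clopper-Pearson) and ratios exact conditional 95% intervals, which cover counting error only. A ratio needed at least 20 counts over both sides, and a side of 0 counts was set to 3 counts, which gives a bound. No ratio was given where that bound reached the level of the other side. Doublets called by Scrublet (scanpy 1.11.5), 9 cells or 0.857%, stayed in, and so few calls among 1050 cells may miss doublets. The ratio code was tested on simulated data.

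The genes and lists were chosen with earlier results of these data known. Named genes were the 4 of each list with the most counts, and others with at least 50 counts and 2-fold by Tcf7 or Ccr7; those that bear on a member are printed. Tle4, Tob1 and Id1 are outside that rule and were named after their values were seen. The Foxo1 pattern over classes, the ratios within Foxp3 states and the comparison by Tcf7 were chosen after values were seen. Alternatives were thinning, capped counts, other cell filters, gates, totals and weights, and leaving out doublets, non-T cells or Ccr7-positive cells.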

Additional observations from a re-analysis of the deposited data

Results flagged for a closer look

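Members were also counted in the 935 droplets that the cell filter left out, which held 141827 counts with a median of 88 per droplet. In these droplets Id2 was at 381 CPM, Foxo1 at 162, Klf2 at 148, Tcf7 at 84.6, Satb1 at 49.4 and Klf3 at 35.3, each on more than 3 counts. These droplets entered no comparison. They were picked out because they hold counts of these genes outside the cells analysed. All 6 levels were below those of the 1050 cells, which were 912, 331, 377, 116, 94.9 and 93.6 CPM in the same order. The intervals were apart for Id2, Foxo1 and Klf2 and overlapped for Tcf7, Satb1 and Klf3. Lef1 (14.1 against 93.0 CPM) and Id3 (21.2 against 32.9 CPM), on 2 and 3 counts, were also lower. Bach2, on 3 counts, was not (21.2 against 19.4 CPM).

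Lef1 was picked out because its ratios pointed in opposite directions in the 2 Foxp3 states, each with an interval that leaves out 0. The log2 ratio by Ikzf2 in Foxp3-positive cells exceeded that in Foxp3-negative cells by 2.80, and the ratio by Gata3 by 2.68. The difference was not tested, because the cells belong to 1 sample.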

How the results depend on the processing

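Under the alternatives, 360 of 375 log2 ratios kept their sign, including all 200 values of the 20 ratios past 2-fold; a kept sign says little of the size. Thinning to 500 counts per cell before gating moved 12 of 28 ratios out of their interval. It gave 2 of 7 members with a ratio at least 2-fold lower by Foxp3 (2 to 3 over 11 random draws), 2 by Gata3 (1 to 3) and 3 by Ikzf2 (2 to 4), and 5 higher by Ccr7 (5 to 6). Fewer members had 20 counts there, and the part this played was not tested. The share of all genes past 2-fold was not computed under thinning or capping. The counts of members there have no such share to be read against. With counts capped at 1 per cell, 0 members were at least 2-fold lower by Ccr7, since Id2 was at -0.97. After thinning, the Lef1 ratio by Foxp3 ranged from -0.72 to 0.38. No paired analysis was possible because the table is 1 sample. With a median of 1235.5 counts per cell, Bach2 and Id3 were too sparse to compare between most classes, and absence from a cell is not absence of expression.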
